A study of Mus musculus with 8 samples.

Results

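The TRAV3 family is a small set of variable (V) genes of the mouse T cell receptor α (TRA) locus. Its members were taken by the V gene call of each cell barcode: a barcode belonged to the family when its TRA chain was called TRAV3-1, TRAV3-3 (TRAV3-3_1 in the tables), TRAV3-4 or TRAV3-2 and the barcode carried no multiplet mark. The family held 14283 of the 107882 such barcodes with a TRA chain (13.2%). In 11903 of them the complementarity-determining region 3 (CDR3) ended in phenylalanine (F) or tryptophan (W), the residues that close a CDR3, and in 2380 it did not. The latter were counted apart, and a TRAV3 cell below means a barcode with a TRAV3 chain that ends in F or W unless stated otherwise.

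A TRA chain is made in the thymus when a V gene is joined to one of many joining (J) genes further along the chromosome, with bases lost from both ends and others added between them. The V gene supplies the CDR1 and CDR2 loops and the start of CDR3, and the J gene supplies its end. A locus can rearrange again, each time joining a V gene further upstream to a J gene further downstream, and the TRA chain is displayed on the cell with a TCRβ (TRB) chain.

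CD8+ T cells were profiled by single-cell T cell receptor sequencing in 14 tables from 7 mice. Thymus was sampled in every mouse, and the other tissue was spleen for mouse-155A and mouse-155C and tumor for the remaining 5, namely mouse-164B, mouse-164C, mouse-160A, mouse-160B and mouse-160C. The study used Pdcd1fl/fl mice and Pdcd1 cKO mice, which carry the floxed Pdcd1 alleles with an E8I-driven, CD8-restricted Cre, on a C57BL/6 background. Cells were taken at baseline (thymus and spleen) or, 12 days after injection, from mice bearing B16-OVA or B16-F10 melanoma (thymus and tumor). The animal and tissue are those in the name of a table, and the labels give neither genotype nor tumor model for a table, so these groups were not compared. Depth, given as barcodes with an F- or W-ended TRA chain, was lowest for mouse-155C thymus (2293) and highest for mouse-164C tumor (19839). Each animal gave 1 table per tissue and cells are not replicates, so no test was run. Bracketed ranges are exact (Clopper–Pearson) 95% binomial intervals, which cover counting error only. No expression values were used here, so the labelled cell type was not checked against marker genes.

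Tables were not fully separate in their barcodes. No whole barcode was shared, with 0 of 229512 in more than 1 table. Some cells had a matching cell in another table, with the same barcodes of the later labelling rounds, the same sublibrary and the same TRA CDR3. These were 1502 of 11903 TRAV3 cells (12.6%) and 9627 of 89820 cells with other TRAV genes (10.7%). Without them the family's share of TRA cells was 8.65% instead of 9.14% in the thymus tables (median), 9.49% instead of 9.84% in the tumor tables (median) and 19.95% instead of 19.86% in mouse-164B tumor.

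The family's place in the genome sets what a call can mean. On the plus strand of chromosome 14 (GRCm39, GENCODE vM39), 8 TRAV3 copies were annotated over 1.197 Mb, of which 5 were V genes and 3 pseudogenes. Trav3-1 (ENSMUSG00000076760, chr14:52818122-52818670) was V gene 3 of 130 counted from the far 5′ end and lay 1.57 Mb before the first J gene. Trav3-3 (ENSMUSG00000094828, chr14:53903386-53903963) was number 109, at 0.488 Mb, and Trav3-4 (ENSMUSG00000076858, chr14:54014413-54015033) was number 121, at 0.377 Mb. Between them lay Trav3d-3 (ENSMUSG00000093953, chr14:53209905-53210495) and Trav3n-3 (ENSMUSG00000094877, chr14:53521042-53521632), whose V exons did not differ from each other. The V exon was 291 bases long in each of the 5 genes. Against Trav3-1, it differed at 26 bases in Trav3d-3 and Trav3n-3, at 28 in Trav3-3 and at 6 in Trav3-4. The last 30 bases of the V exon are shown because they are the part that the sequenced chains covered, with capitals for bases that differ from Trav3-1:
Trav3-1, chr14:52818641-52818670: actcagccgtgtacttctgcgcagtcagtg
Trav3d-3, chr14:53210466-53210495: actcagccgtgtacttctgcgcagtcagtg
Trav3n-3, chr14:53521603-53521632: actcagccgtgtacttctgcgcagtcagtg
Trav3-3, chr14:53903934-53903963: actcagccgCgtacttctgcgcagtcagtg
Trav3-4, chr14:54015004-54015033: actcagcTgtgtacttctgcgcagtcagtg
A single base separates Trav3-3, and another Trav3-4, from the other copies in this stretch. Contigs of F- or W-ended TRAV3 chains held a median of 27 V bases (22 to 58). Every contig carried the base of the gene it was called by at both positions, in 5922 contigs called TRAV3-1, 3831 called TRAV3-3 and 333 called TRAV3-4. In 0 of these contigs did the sequence reach the nearest base that separates Trav3-1 from Trav3d-3 and Trav3n-3. The name TRAV3-1 therefore stands for any of these 3 copies, while TRAV3-3 and TRAV3-4 each name 1 gene.

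TRAV3-1 was called in 9012 barcodes, 7718 of them with an F or W end, in 2268 distinct chains (the V gene with a CDR3 amino acid sequence). TRAV3-3 was called in 4892 barcodes, 3807 with an F or W end, in 1469 distinct chains. TRAV3-4 was rarer, with 378 barcodes, 377 with an F or W end, in 283 distinct chains. The pseudogene TRAV3-2 was called in 1 cell of mouse-164C tumor and is counted in the family only. Among 82 TRAV genes the 3 members were number 2, 6 and 53 by F- or W-ended cells, and the family was number 4 of 20 families after TRAV12, TRAV14 and TRAV9. With their TRB chains, the 7208 paired TRAV3 cells formed 5004 distinct clonotypes.

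In the thymus, the family made up a similar share of TRA cells in each animal. It was 9.33% (8.41 to 10.3) in mouse-155A, 10.6% (9.33 to 11.9) in mouse-155C, 9.14% (8.15 to 10.2) in mouse-160A and 8.88% (8.26 to 9.52) in mouse-160B. It was 8.70% (8.00 to 9.44) in mouse-160C, 9.69% (9.11 to 10.3) in mouse-164B and 8.41% (7.82 to 9.02) in mouse-164C. The spleen tables lay within this range, at 9.96% (9.18 to 10.8) in mouse-155A and 10.01% (8.92 to 11.2) in mouse-155C. The thymus and spleen tables thus ran from 8.41% to 10.6%.

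The tumor tables differed far more from each other. The family held 7.81% (6.82 to 8.89) of TRA cells in mouse-160A tumor, 9.49% (9.001 to 10.001) in mouse-160B tumor and 9.84% (9.13 to 10.6) in mouse-160C tumor. It held 19.9% (19.1 to 20.7) in mouse-164B tumor and 16.7% (16.2 to 17.2) in mouse-164C tumor. These last tables stood above all the others, with intervals that did not touch theirs. The share of cells was higher in the spleen or tumor than in the thymus of the same animal in 5 of 7 animals, with mouse-155C and mouse-160A as the exceptions.

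Counted by distinct chains, each chain once per table, the difference between tables was small. The family held 7.92% to 9.37% of distinct TRA chains in the 14 tables, with a tumor median of 8.88% and a thymus median of 9.07%. In mouse-164B it was 9.07% in thymus and 8.97% in tumor, and in mouse-164C 8.32% and 8.88%. The spleen or tumor share of distinct chains was the higher one in 2 of 7 animals, and the differences ran from -0.57 to 0.56 percentage points. A TRAV3 chain was held by 1.26 to 1.49 cells on average in thymus tables and by 1.60 to 5.05 cells in tumor tables.

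**Figure D1:**
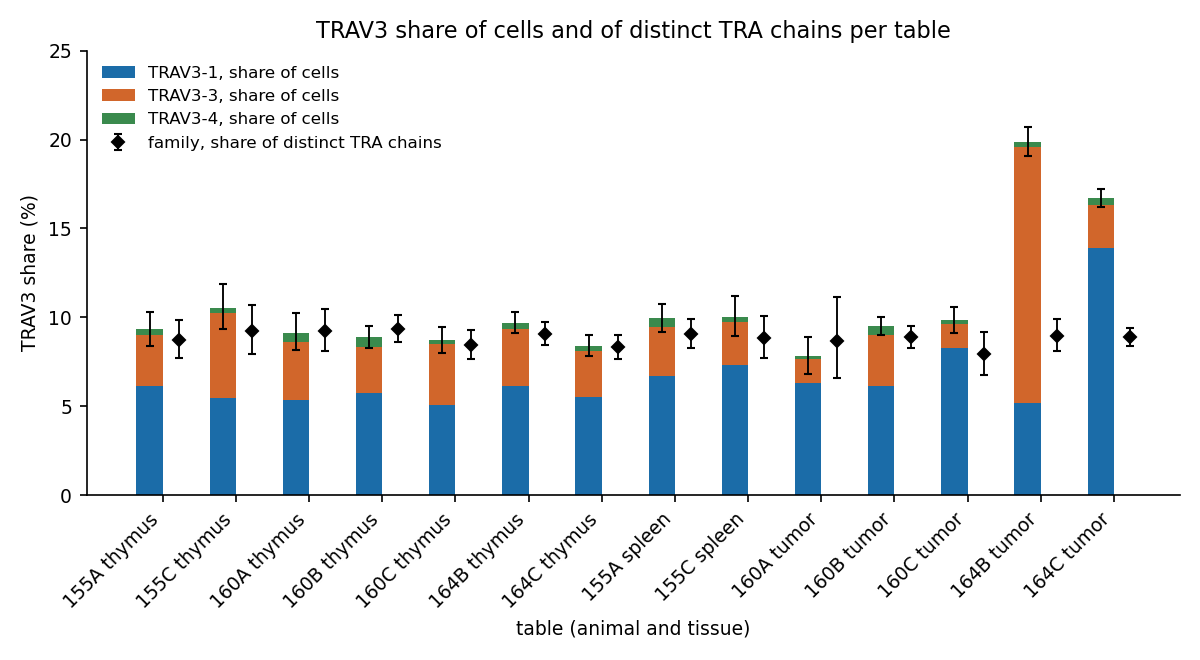
Share of TRAV3 genes in each of the 14 tables, in percent. Stacked bars give cells per gene with the 95% interval of the family, and diamonds give the family's share of distinct TRA chains with its interval. The bars of mouse-164B tumor and mouse-164C tumor reach 19.9% and 16.7%, while the diamonds of all tables lie between 7.92% and 9.37%.

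The 2 main members differed in which tumor they stood out in. TRAV3-1 held 5.06% to 6.14% of TRA cells in thymus tables, 6.71% and 7.30% in spleen tables, and 13.9% (13.4 to 14.4) in mouse-164C tumor. It held 8.30% (7.64 to 8.996) in mouse-160C tumor and 5.16% to 6.33% in the other tumor tables. Its share of cells was higher in spleen or tumor than in thymus in 6 of 7 animals, and its share of distinct chains in 4 of 7.

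TRAV3-3 held 2.58% to 4.80% in the thymus and 14.4% (13.7 to 15.1) in mouse-164B tumor. In mouse-160A tumor and mouse-160C tumor it held 1.33% each and in mouse-164C tumor 2.39%, all below the range of the thymus tables. In mouse-160B tumor it held 2.84%. The spleen tables had 2.73% in mouse-155A and 2.42% in mouse-155C, the latter also below that range. Counted by distinct chains it was higher in spleen or tumor in 2 of 7 animals. TRAV3-4 stayed between 0.148% and 0.553% in all 14 tables, on 4 to 78 cells, and its thymus range held all but the lowest tumor value.

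In 4 of the 5 tumors a large part of a member's cells held 1 chain. The nucleotide sequences of these chains are printed because each chain reappeared in 8 or more other tables. They run from the cysteine codon to the closing F or W codon, with capitals for bases that the deposited annotation gave to neither the V nor the J gene:
TRAV3-1/TRAJ22, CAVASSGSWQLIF, mouse-164C tumor: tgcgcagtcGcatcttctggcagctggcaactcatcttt
TRAV3-3/TRAJ33, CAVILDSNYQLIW, mouse-164B tumor: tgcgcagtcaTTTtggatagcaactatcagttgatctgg
TRAV3-1/TRAJ15, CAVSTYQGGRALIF, mouse-160C tumor: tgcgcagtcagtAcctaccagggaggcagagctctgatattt
TRAV3-1/TRAJ4, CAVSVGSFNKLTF, mouse-160A tumor: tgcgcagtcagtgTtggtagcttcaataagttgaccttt
In 3 of the 4 the annotation left 1 base to neither gene, and in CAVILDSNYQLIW 3 bases.

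In mouse-164C tumor, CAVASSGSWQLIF was found in 1909 cells, 69.2% of the TRAV3-1 cells and 9.62% of all TRA cells. Without these cells TRAV3-1 held 4.74% (4.43 to 5.06) of TRA cells, against 4.99% (4.53 to 5.48) in the thymus of that animal without the same chain. A TRB chain was seen in 1189 of the cells, and 824 of these (69.3%) had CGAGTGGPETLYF with TRBV20 and TRBJ2-3. Over all paired cells 324 distinct TRB chains were seen.

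In mouse-164B tumor, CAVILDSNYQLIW was found in 1064 cells, 79.8% of the TRAV3-3 cells and 11.5% of all TRA cells. Without them TRAV3-3 held 3.29% (2.92 to 3.70), against 3.03% (2.70 to 3.38) in the thymus of that animal without the same chain. Of 710 cells with a TRB chain, 647 (91.1%) had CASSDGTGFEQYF with TRBV13-1 and TRBJ2-7. A further TRA chain was recorded in 611 of the 1064 cells (57.4%), and in 593 of these it was TRAV12-1/TRAJ45 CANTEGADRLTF. In the other leading tumor chains described here a second TRA chain was recorded in 0% to 16.3% of cells. The most frequent TRAV3-4 chains of mouse-160B tumor and mouse-160C tumor had one in 3 of 9 and 1 of 5 cells.

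In mouse-160C tumor, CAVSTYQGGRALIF was found in 365 cells, 68.0% of TRAV3-1 cells and 5.64% of TRA cells. Its TRB chain was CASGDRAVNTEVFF with TRBV13-2 and TRBJ1-1 in 241 of 268 paired cells. TRAV3-1 without it held 2.82% (2.42 to 3.26), against 5.06% (4.52 to 5.64) in the thymus of that animal, where the chain was found in 0 cells. In mouse-160A tumor, the shallowest of the tumor tables, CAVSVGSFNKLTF was found in 54 cells and had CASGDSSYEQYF with TRBV13-3 in 30 of 34. The leading TRAV3-4 chain of mouse-164B tumor, with TRAJ52, made up 14 of the 28 TRAV3-4 cells there, and all 10 of its paired cells had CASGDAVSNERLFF. Mouse-160B tumor had no such chain: its most frequent TRAV3 chain was the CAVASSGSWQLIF of mouse-164C, in 148 cells.

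The leading chains of the tumors were also found in other tables, in all 13 others for the most frequent of them and in 2 for the rarest. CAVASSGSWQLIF was found in all 14 tables, in 11 to 148 cells (median 41) of each of the 13 others, and was the most frequent TRAV3-1 chain in 11 of those. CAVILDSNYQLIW was found in 6 to 45 cells (median 19) of each of the other 13 tables, and its 45 cells in mouse-155C thymus were 40.9% of the TRAV3-3 cells there. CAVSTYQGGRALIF was in 12 other tables with 71 cells in all, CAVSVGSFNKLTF in 8 with 15 cells and the leading TRAV3-4 chain of mouse-164B in 2 with 2 cells. Of the 608 cells with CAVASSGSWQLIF outside mouse-164C tumor, 561 were in other animals and 47 in the thymus of mouse-164C. A TRB chain was seen in 4 of these thymus cells, and in 0 of them was it the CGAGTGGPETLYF of the tumor. In the other animals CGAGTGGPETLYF was seen with the chain in 1 cell, in mouse-155C spleen.

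Those cells differed from the cells in the home tumor in their transcripts and their TRB chains. Outside the home table, 98.0% of the 965 cells of the 5 chains rested on 1 TRA transcript, against 36.3% of the 3406 cells at home. A TRB chain was seen in 10.6% of them, against 64.9% at home. A matching cell in another table was seen for 441 of them (45.7%), against 315 (9.25%) at home. A match needs the same CDR3 in another table. These shares therefore depend on how many cells of the chain the other tables hold, and are not a like comparison. The other 7532 TRAV3 cells lay near the home values, with 48.3% on 1 transcript, 65.0% with a TRB chain and 9.90% matching. With the 5 chains kept only in their home tables, the median family share of the thymus tables was 7.86%. The part of barcode sharing in the cells outside the home tables was not tested.

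**Figure D2:**
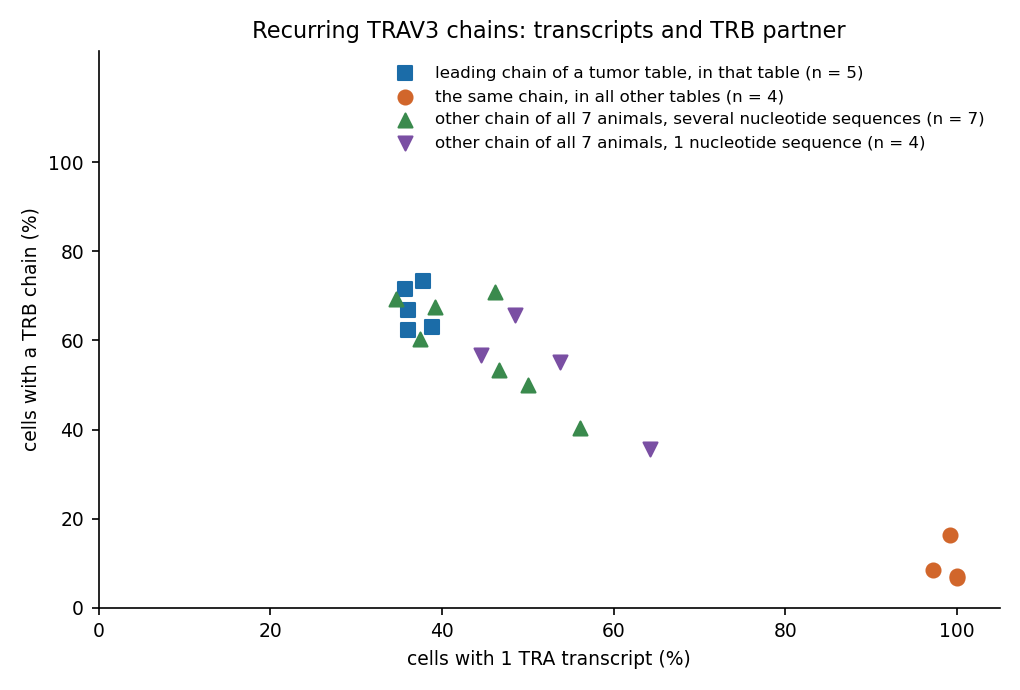
Share of cells resting on 1 TRA transcript (x axis, percent) against the share with a TRB chain (y axis, percent), for TRAV3 chains with 5 or more cells. Squares are the leading tumor chains in their home table, circles the same chains in all other tables, and triangles the 11 other chains found in all 7 animals, pointing up for several nucleotide sequences and down for 1. The circles lie at 97.2% to 100% and at or below 16.4%. The triangles lie at 34.6% to 64.3% and at 35.7% to 71.0%, but pool all tables, also the one where a chain was most frequent. Circles and triangles are therefore not like for like. Pooled over all tables, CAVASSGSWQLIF had 50.8% and 49.3% and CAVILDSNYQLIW 48.8% and 56.6%, inside the range of the triangles.

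Other TRAV3 chains also recurred between animals. Apart from the leading tumor chains, 11 chains were found in all 7 animals, of which 7 had several annotated nucleotide sequences and 4 had 1. In the latter, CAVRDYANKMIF, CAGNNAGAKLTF, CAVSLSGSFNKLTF and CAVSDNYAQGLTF, the leading TRB chain took 20% to 87.0% of the paired cells, where the 20% was 1 of 5 cells. In the former it took 2% to 52.2%, with a median of 5.56%. Matching cells in other tables were seen for 4.17% to 66.7% of the cells of the 11 chains. Some of the 11 had most of their cells in 1 table. It held 57 of 74 cells of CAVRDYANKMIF, 38 of 67 of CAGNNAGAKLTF, 32 of 57 of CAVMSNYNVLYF and 19 of 35 of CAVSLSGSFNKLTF. In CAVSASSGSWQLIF the highest table held 24 of 93, and in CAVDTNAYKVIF with TRAV3-1 20 of 74. Cells inside and outside the highest table were not compared for these chains. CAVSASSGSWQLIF (TRAV3-1/TRAJ22) was found in 7 animals and 10 tables with 93 cells, of which 46.2% rested on 1 transcript and 4.30% had matching barcodes. Its 66 paired cells had 65 distinct TRB chains. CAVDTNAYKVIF (TRAV3-1/TRAJ30) was found in 13 tables with 74 cells, and its 50 paired cells had 50 distinct TRB chains. The same CDR3 was joined to TRAV3-3 in another 26 cells of 10 tables. Each of the 2 was written in 5 nucleotide sequences. The most frequent ones are shown because they hold no added base:
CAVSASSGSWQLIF, 58 contigs: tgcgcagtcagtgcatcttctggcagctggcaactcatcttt
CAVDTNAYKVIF, 30 contigs: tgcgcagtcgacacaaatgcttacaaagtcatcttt
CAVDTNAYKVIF, 27 contigs: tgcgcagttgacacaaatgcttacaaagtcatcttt
No base was added in 92.2% of the annotated contigs of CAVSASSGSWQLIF and in 86.4% of those of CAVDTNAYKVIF. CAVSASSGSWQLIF and the leading chain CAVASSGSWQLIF of mouse-164C tumor use the same V and J genes, and differ by 1 residue in length.

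Of the 4021 distinct TRAV3 chains, 987 (24.5%) were found in several animals, against 20.1% of the 44206 chains of other TRAV genes. By gene it was 28.1% of TRAV3-1, 21.5% of TRAV3-3 and 11.7% of TRAV3-4 chains, and 15 TRAV3 chains were found in all 7 animals. With the TRB chain added, 11 of 5004 TRAV3 clonotypes were found in several animals. They held 1554 of the 7208 paired cells, most of them in a single tumor. The count for clonotypes of other TRAV genes is not given here, so the 11 are not read as a trait of the family. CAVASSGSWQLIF with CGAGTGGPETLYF held 825 cells, of which 824 were in mouse-164C tumor. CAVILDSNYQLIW with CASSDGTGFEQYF held 655, of which 647 were in mouse-164B tumor. The number of cells differs between the genes as well, and its part in these shares was not tested.

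Within an animal, TRAV3 clonotypes shared by thymus and spleen or tumor were few. Counts for other TRAV genes are not given here, so it is open whether the family differs from them. Mouse-164B shared 7 of 616 thymus and 338 tumor clonotypes, on 21 thymus and 58 tumor cells, and mouse-160A shared 5 of 182 and 46, on 11 and 23 cells. Mouse-164C shared 2, mouse-155C and mouse-160B shared 1 each, and mouse-155A and mouse-160C shared 0. A thymus table shared at most 2 TRAV3 clonotypes with a spleen or tumor table of another animal. The own tissue stood above the highest count with another animal in mouse-160A, mouse-164B and mouse-164C. Of the shared thymus cells, 1 in mouse-164B and 1 in mouse-155C had matching barcodes.

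The 3 members were joined to different J genes. TRAJ genes are numbered downwards along the chromosome, from TRAJ61 nearest to the V genes to TRAJ1, over 63.8 kb, so a lower number is further from them. Over distinct chains of the thymus tables, the median TRAJ number was 21 to 22.5 for TRAV3-1, 33 to 40 for TRAV3-3 and 40 to 48.5 for TRAV3-4. For all other TRAV genes together it was 27 to 30. TRAV3-1 was below TRAV3-3 and below the other TRAV genes in 14 of 14 tables, and TRAV3-3 was above the other TRAV genes in 14 of 14. TRAV3-4 was above TRAV3-3 in 13 of 14, and equal to it at 40 in mouse-160A thymus. Its medians rest on 6 to 37 chains a thymus table. Counted by cells, the thymus median of the TRAV3-1 minus TRAV3-3 difference was -12, and -15 with each chain counted once.

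The same order was seen along the J region as a whole. The far group, TRAJ23 to TRAJ1, took a thymus median of 59.7% (lowest 54.3%, highest 63.5%) of TRAV3-1 chains, 12.9% (9.93% to 20.9%) of TRAV3-3 chains and 11.5% (0% to 20%) of TRAV3-4 chains. It took 41.1% (39.4% to 44.1%) of chains of other TRAV genes. The near group, TRAJ61 to TRAJ43, took 3.35% (1.06% to 4.24%) of TRAV3-1, 35.9% (27.4% to 39.7%) of TRAV3-3 and 54.5% (40% to 66.7%) of TRAV3-4 chains, against 21.0% (19.7% to 22.6%) of the others. TRAV3-1 and TRAV3-3 did not overlap in either group and stood on opposite sides of the other TRAV genes.

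TRAV3-1 was joined most often to TRAJ30 (thymus median 7.20% of distinct chains), TRAJ22 (6.89%) and TRAJ21 (6.78%). TRAJ21 took 1.32% of TRAV3-3 chains and 2.73% of chains of other TRAV genes. TRAV3-3 was joined most often to TRAJ45 (8.06%), TRAJ30 (6.05%) and TRAJ37 (5.71%), of which TRAJ45 took 0.898% of TRAV3-1 chains. These are medians, and TRAJ45 ran from 0% to 12.7% of TRAV3-3 chains over the thymus tables, so the order did not hold in each. TRAV3-4 was joined most often to TRAJ49 (13.5%), TRAJ40 (13.3%) and TRAJ48 (8.33%), which took 0.299%, 1.55% and 0% of TRAV3-1 chains. The lowest thymus value of each of these J genes in TRAV3-4 was 0%. TRAJ30 was thus the only J gene among the first 3 of both larger members.

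**Figure D3:**
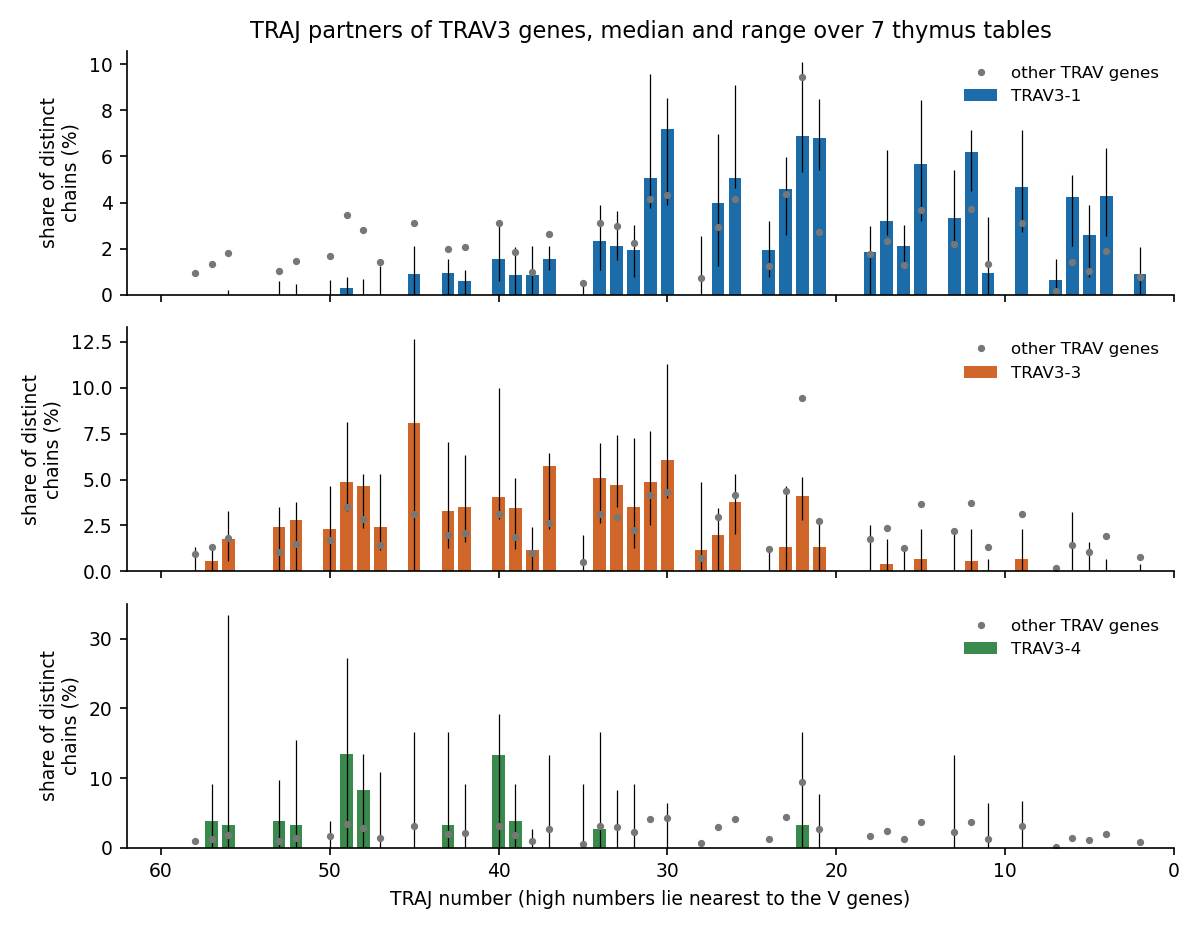
Share of distinct chains (percent) joined to each TRAJ gene, for TRAV3-1, TRAV3-3 and TRAV3-4. Bars are medians over 7 thymus tables with lines from lowest to highest, and grey points are medians of all other TRAV genes. High TRAJ numbers, nearest to the V genes, are at the left. TRAV3-1 has 3.35% of its chains left of TRAJ42, TRAV3-3 35.9% and TRAV3-4 54.5%.

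This order followed the place of the genes on the chromosome. Over 34 TRAV genes with a share of at least 1% or in the family, the Spearman correlation of position with the median TRAJ number was 0.89, as a description, since all points come from the same 7 thymus tables. The median of TRAV3-1, 22, was near the low end and was shared with TRAV7D-3, TRAV14D-1 and TRAV15-1-DV6-1. That of TRAV3-4, 45, was near the high end and was shared with TRAV16. TRAV2, next to Trav3-1, had a median TRAJ number of 24.5, and TRAV9-4, next to Trav3-3, one of 39. Other genes departed from the order. TRAV15-2-DV6-2, also next to Trav3-3, had 22 and TRAV12-4, next to Trav3-4, had 31, both called in few cells. TRAV21-DV12, the nearest to the J genes of the 34, had 28. The position of TRAV3-1 in this comparison is that of Trav3-1, although the call also covers Trav3d-3 and Trav3n-3, which lie 0.392 Mb and 0.703 Mb closer to the J genes.

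**Figure D4:**
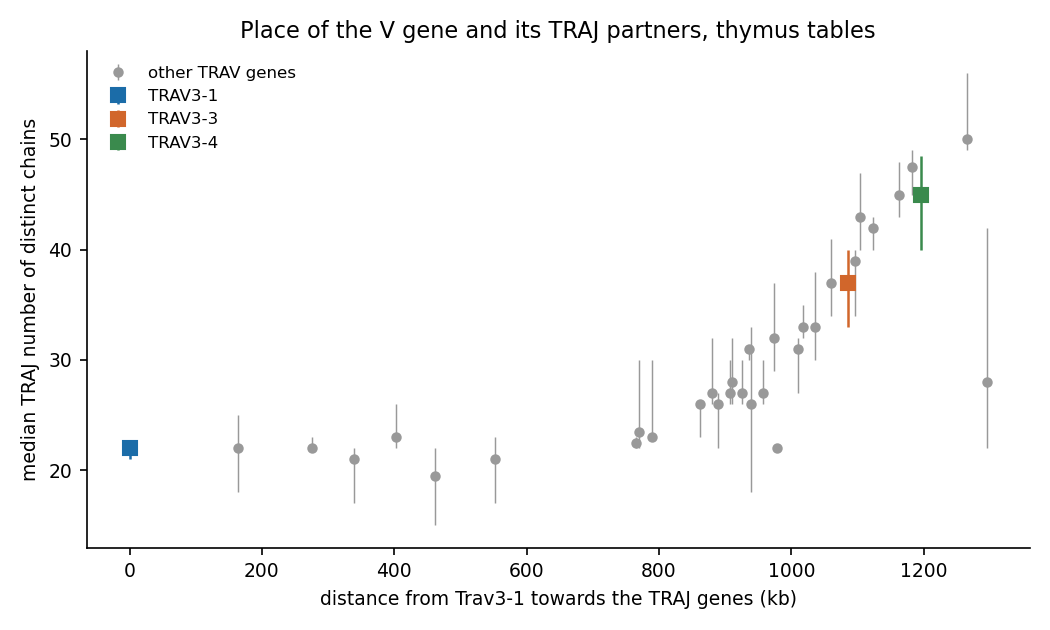
Distance of each V gene from Trav3-1 towards the J genes (x axis, kb) against the median TRAJ number of its distinct chains in thymus tables (y axis), with lines from the lowest to the highest table. Squares are TRAV3-1, TRAV3-3 and TRAV3-4 and grey points other TRAV genes. The medians are 22, 37 and 45 for the 3 members in the order of their distance.

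The CDR3 of TRAV3 chains was slightly short. The mean length in thymus tables was 13.4 residues for TRAV3-1 and 13.6 for TRAV3-3, against 13.9 for other TRAV genes (medians over tables), and it was below the others in 14 and 11 of 14 tables. From the cysteine on, the V exon can supply 13 bases, which read CAVS and the first base of the next codon. CAV opened 91.1% of TRAV3-1 and 93.4% of TRAV3-3 chains, and CAVS 53.2% and 57.0%. In the annotated chains, fewer bases were added between V and J, with 2.72 in TRAV3-1 and 2.97 in TRAV3-3 on average against 3.83 in the others. Fewer were lost from the J gene, with 2.70 and 2.98 against 3.66. Both measures were lower than in the other TRAV genes in 14 of 14 tables, though some values were close. In mouse-155A spleen 2.880 bases were added in TRAV3-3 against 2.887 in the others. Chains with no added base were not more frequent, at thymus medians of 14.6% in TRAV3-1 and 12.7% in TRAV3-3 against 16.2%. The J genes used differ between these sets, and their part in the lengths was not tested.

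The TRB partners of TRAV3 chains were compared with those of other TRA chains. Over the paired clonotypes of the thymus tables, TRAV3-1 was found most with TRBV13-2 (median 10.7%), TRBV29 (7.77%), and TRBV13-1 and TRBV13-3 (7.73% each), and other TRAV genes had 13.2%, 6.97%, 8.12% and 6.56% of these. TRAV3-3 was found most with TRBV13-2 (13.04%), TRBV13-1 (8.78%) and TRBV13-3 (8.78%). TRAV3-4 was found most with TRBV13-2 and TRBV13-3 (11.1% each) and TRBV3 (10%), from few chains. Of 19 TRBV genes compared, 0 had a range over thymus tables in TRAV3-1 that lay apart from that of the other TRAV genes. In TRAV3-3 it was 1 of 19, TRBV3, at 3.17% to 5.37% against 5.78% to 6.78%. Ranges that overlapped could still have unlike medians, as for TRBV12-2 with TRAV3-1, at 2.32% against 4.65%, and TRBV16 with TRAV3-3, at 3.55% against 6.22%.

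A TRB chain was seen in 60.6% of TRAV3 cells and 63.0% of cells with other TRAV genes. The family value pools unlike cells, with 10.6% in cells of the 5 leading tumor chains outside their home tables. It was 64.9% in cells of these chains at home and 65.0% in the other TRAV3 cells. By gene it was 59.5% for TRAV3-1, 62.02% for TRAV3-3 and 67.9% for TRAV3-4. A second TRA chain was recorded in 13.5% of TRAV3-1, 25.1% of TRAV3-3 and 11.9% of TRAV3-4 cells, and in 15.3% of cells with other TRAV genes. In TRAV3-3, 593 of the 957 cells with a second chain were the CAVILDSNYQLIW cells of mouse-164B tumor with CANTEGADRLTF.

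Chains without an F or W end made up a larger share of the family than of the pooled other TRAV genes. They were 2380 of 14283 TRAV3 barcodes (16.7%) and 3779 of 93599 others (4.04%), so that TRAV3 gave 2380 of all 6159. Single genes outside the family also had high shares, such as TRAV8-2 (82.6%), TRAV14-1 (19.9%) and TRAV14D-1 (15.3%). The share was 14.4% for TRAV3-1 and 22.2% for TRAV3-3, while TRAV3-4 had 1 such cell (0.265%). The last residue was threonine in 2327 of them. Of the 2380 cells, 92.0% rested on 1 transcript and 46.1% had a TRB chain. In other TRAV genes such chains rested on 1 transcript in 93.3%, and 54.6% had a TRB chain.

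Nearly all of these chains ran from the V exon straight into the genomic bases behind it. Directly after the V exon stands the recombination signal, which begins with a heptamer at which the V gene is cut. The 27 bases after the exon are shown because the CDR3 of these contigs ends within them, with the heptamer in capitals:
Trav3-1, chr14:52818671-52818697: CACAGTGccccccaggcacctgcagtc
Trav3d-3, chr14:53210496-53210522: CACAGTGctccccaggcacctgcagcc
Trav3n-3, chr14:53521633-53521659: CACAGTGctccccaggcacctgcagcc
Trav3-3, chr14:53903964-53903990: CACAGTGctccccaggcacctgcagcc
Trav3-4, chr14:54015034-54015060: CACAGTGcccccccaggcacctgcagt
CAVSAQCSPGT, 1623 contigs called TRAV3-1 and 1421 called TRAV3-3: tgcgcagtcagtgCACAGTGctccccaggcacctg
CAVSAQCPPGT, 16 contigs called TRAV3-1: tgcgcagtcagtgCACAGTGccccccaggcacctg
Of 3159 contigs without an F or W end, 3061 (96.9%) matched at least 20 bases of such a flank, for a median of 158 bases. All 3061 had been called TRAJ28 and none had a constant gene call. Of 10088 contigs with an F or W end, 0 matched a flank in this way, none beyond 5 bases, and 11.9% had no constant gene call. A CDR3 of the flank was read in 2322 of the 2380 cells.

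The flank told apart copies that F- or W-ended chains did not. Among those called TRAV3-1, 1624 matched the flank of Trav3d-3 and Trav3n-3 and 16 that of Trav3-1. The 1421 called TRAV3-3 carried the Trav3-3 base in the exon and the flank that these 3 copies share. The flank of Trav3-4 was seen in none, which a count of 3 in 3159 would still allow.

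The share of barcodes with a TRAV3 chain of this kind was higher in thymus than in the other tissue of all 7 animals. It was 2.56% (2.10 to 3.09) against 1.27% (0.999 to 1.59) in mouse-155A, and 2.85% (2.24 to 3.58) against 2.49% (1.96 to 3.11) in mouse-155C, with spleen second. With tumor second, it was 2.28% (1.80 to 2.85) against 1.67% (1.23 to 2.22) in mouse-160A and 2.61% (2.28 to 2.97) against 1.92% (1.70 to 2.17) in mouse-160B. In mouse-160C it was 5.27% (4.74 to 5.83) against 2.59% (2.22 to 2.99). It was 2.06% (1.80 to 2.35) against 1.04% (0.851 to 1.27) in mouse-164B and 3.69% (3.31 to 4.10) against 1.204% (1.06 to 1.36) in mouse-164C. The intervals lay apart in 5 of the 7 animals, and the thymus value was 1.15 to 3.06 times the other. Chains without an F or W end of other TRAV genes were also higher in thymus in 7 of 7 animals, by 1.25 to 2.30 times.

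**Figure D5:**
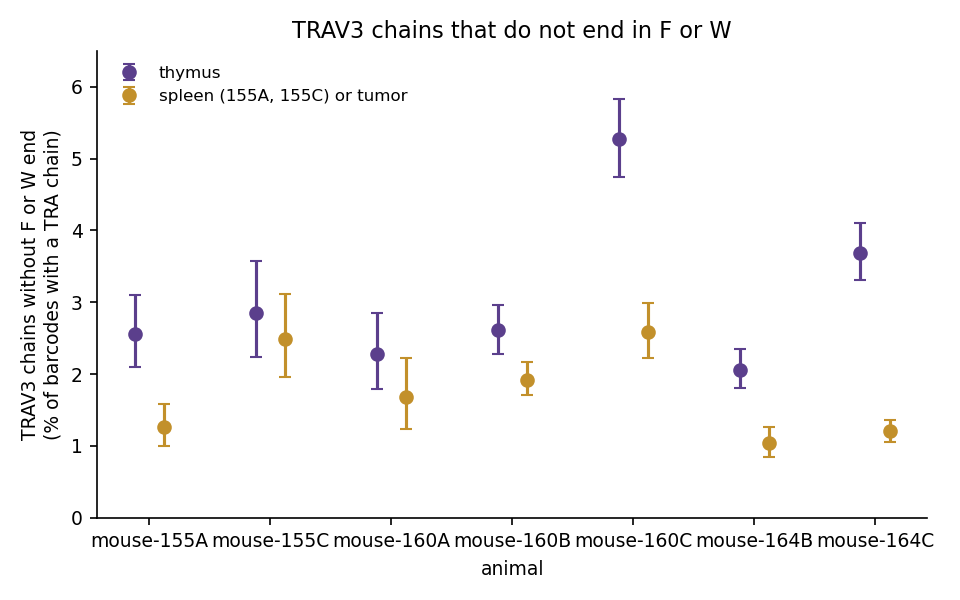
Barcodes with a TRAV3 chain that does not end in F or W, as percent of barcodes with a TRA chain (y axis), for each animal (x axis). Points are single tables of thymus or of spleen or tumor, with exact 95% binomial intervals. Thymus lies above the other tissue in all 7 animals, from 2.06% to 5.27% against 1.04% to 2.59%.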

How the data were processed

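Single-cell TCR libraries of CD8+ T cells (Parse Evercode TCR, 8 multiplexed sublibraries) were sequenced by the authors, who assembled and annotated chains with the Parse Biosciences TCR pipeline on GRCm39. The version of that pipeline is not given in the sources used here. Per barcode and chain, transcript counts as deposited by the authors were used. The labels give no group for the 8 samples, so animal and tissue were taken from table names. The deposited annotation was held in part for mouse-160B thymus, mouse-164B thymus and mouse-164C tumor. Barcodes that the authors marked as multiplets (24019) were left out.

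Shares were computed per table as percent of barcodes with an F- or W-ended TRA chain, by cell and by distinct chain (V gene and CDR3 amino acid sequence). Exact 95% intervals (scipy 1.17.1, pandas 2.3.3, python 3.11.15) cover counting error only. Contig ends were compared with GRCm39 and GENCODE vM39, whose assembly is the build in the labels, with 20 matching flank bases as the minimum. Scripts were tested on simulated data. Positions and sequences of V exons, flanks and CDR3 are given on the plus strand.

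Named items were every TRAV3 gene found, the 3 leading TRAJ and TRBV genes of members with at least 100 cells, leading chains of members with at least 5 cells in a table, the 5 chains found in most animals, TRAV genes most like each member and their neighbours in the locus. The members and lists were chosen with earlier results of these data known. TRAV3-2, with 1 cell, was not described further. No expression data were used here, and no chance test was run.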

Additional observations from a re-analysis of the deposited data

Results flagged for a closer look

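In 30 groups of 5 or 7 tables, 6 values, from 4 tables, stood apart by Dixon's criterion, used here only to pick values for a closer look. Chance flags about 1 in 20 separate groups. These groups overlap, as the family holds its members, so that rate does not carry over to them. In mouse-155C thymus, TRAV3-3 held 4.80% of TRA cells, next to 3.45% in the nearest thymus table, and its leading chain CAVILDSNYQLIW held 40.9% of its cells, next to 17.6%. Of these 45 cells, 97.8% rested on 1 transcript. In mouse-164B tumor, TRAV3-3 held 14.4%, next to 2.84% in the nearest tumor table, with 79.8% of its cells in the leading chain, next to 25%. The family's share of distinct chains in mouse-160C tumor was 7.92%, the lowest of the tumor tables, next to 8.68%. The median TRAJ number of TRAV3-1 chains in mouse-160B tumor was 23, while it was 22 in the other tumor tables. A single value beside equal ones is always flagged, however small the gap.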

How the results depend on the processing

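Of 132 recomputed values, 112 stayed within 1 SD over tables of the reported one (for mouse-164B tumor, within its 95% counting interval), 20 moved and 0 reversed. A share cannot change sign, so only the TRAJ difference could have reversed. The SD over tumor tables was wide, at 5.24 points for the family share and 21.9 for the leading chain. A family share of 13.3% without mouse-160A, and 39.8% for the leading chain without cells that hold a second TRA chain, thus still counted as within it. For the TRAJ difference between TRAV3-1 and TRAV3-3 in thymus (-12), it was -15 with both chains required, with at least 2 TRA transcripts, without matching barcodes and without chains of several animals, and -8 with CDR3 not ending in F or W included. The share in mouse-164B tumor (19.9%) became 21.2% with multiplets, 23.3% with at least 2 transcripts, 15.8% without cells that hold a second TRA chain, 8.77% without chains of several animals and 25.8% weighted by transcripts. The tumor median of distinct chains (8.88%) became 9.72% with at least 2 transcripts and 8.22% without chains of several animals. The thymus median (9.14%) became 11.2% with CDR3 not ending in F or W included and 7.55% without chains of several animals. The share of TRAV3 cells in their leading chain (tumor median 57.3%) became 4.39% without chains of several animals, which takes out the leading chains themselves. Chosen after seeing the data, keeping the 5 leading tumor chains only at home gave 7.86% in thymus and -15 for the TRAJ difference, leaving them out everywhere gave 8.87% in mouse-164B tumor, and counting distinct chains once gave -15. The other causes were not tested.

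Leaving out 1 animal or 1 sublibrary at a time gave 41.4% to 57.5% for the leading chain and 8.80% to 9.36% for the thymus share. It gave 9.62% to 13.3% for the tumor share and 8.67% to 9.05% for distinct chains. The TRAJ difference was -15 to -11, where it was sublibrary 7 whose removal gave -15. For mouse-164B tumor, leaving out 1 sublibrary at a time gave 19.6% to 20.05%. No fit with a replicate block was made, since the labels give no groups and no replicate numbers and no test was run. The tissues of an animal are set side by side in the report. Depth limits TRAV3-4 most, with 6 to 37 distinct chains a thymus table, and the copies behind the TRAV3-1 call cannot be told apart in F- or W-ended chains.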

Other observations

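TRAV3 was also recorded as a second TRA chain, in 779 cells for TRAV3-1, 649 for TRAV3-3 and 48 for TRAV3-4. A further 692 TRAV3-1, 605 TRAV3-3 and 0 TRAV3-4 second chains did not end in F or W, where the count of 0 allows up to 3 cells. For TRAV3-1 and TRAV3-3 nearly as many second chains lacked the F or W end as held it.

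Among 31 other TRAV genes with a thymus median of at least 1%, the one most like TRAV3-1 in TRAJ usage was TRAV7-3, with a Jensen–Shannon distance of 0.223 on a scale from 0 to 1, followed by TRAV8N-2 (0.235) and TRAV14N-3 (0.239). Those most like TRAV3-3 were TRAV9-4 (0.200), TRAV14-2 (0.201) and TRAV5-4 (0.201), and those most like TRAV3-4 were TRAV14-3 (0.349), TRAV16 (0.370) and TRAV4-4-DV10 (0.380). The largest distances were 0.837, 0.706 and 0.759. By Spearman correlation of shares over the 14 tables, the first for TRAV3-1 were TRAV9-2 (0.61), TRAV8N-2 (0.51) and TRAV9-4 (0.42), for TRAV3-3 TRAV21-DV12 (0.64), TRAV14N-3 (0.63) and TRAV7-4 (0.54), and for TRAV3-4 TRAV9-1 (0.64), TRAV7D-3 (0.52) and TRAV14N-3 (0.51). These are descriptions, since the tables share libraries and shares sum to a fixed total. Of the neighbours in the locus, TRAV2 had a thymus median share of 0.862% and TRAV9-4 one of 1.79%, TRAV15-2-DV6-2 and TRAV12-4 were called in few cells (medians 0.0375% and 0%), and TRAV4-1 and TRAV15-3 were not among the called genes.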
